A study of Mus musculus with 8 samples.

Results

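The stretch of mouse chromosome 7 described here holds the genes that start between 45 and 75 Mb in assembly GRCm38, chosen by that position. It comprises 2140 probe sets in 190 genes, out of 212097 probe sets with 1 gene symbol and 20352 genes on the array. The genes run from Scaf1 to Slco3a1, a wider stretch than the working name Uevld to Pcsk6, which covers 842 probe sets in 77 genes, so it is called by its limits, the 45 to 75 Mb segment. The segment was proposed because probe sets in it were low in this very comparison, so all differences between the genotypes below are a description and are not offered as tests. A probe set here is a small group of short probes that reads a piece of a transcript, and the segment's genes had a median of 9 probe sets each. Gene values are the mean log2 value of a gene's probe sets, and every difference is the mean of the Cic-L-null arrays minus the mean of the wild-type arrays on the log2 scale.

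RNA came from whole cerebellum of mice aged 28 days on a mixed Swiss Webster (CD-1) background, 4 labelled wild-type and 4 labelled Cic-L-null, with 1 Affymetrix array each. Cic-L is the long form of Capicua, a DNA-binding repressor that forms a complex with ataxin-1 and whose gene, Cic, lies on the same chromosome before the segment. The sources used here do not give the way the mutant allele was made or the crosses behind each group. Cic was 8.74, 8.57, 8.63 and 9.19 in wild-type replicates 1 to 4 and 7.50, 7.48, 7.62 and 7.54 in the Cic-L-null replicates, so the targeted gene was low in every library labelled mutant. The arrays resembled each other closely, with correlations across gene values of 0.9913 to 0.9954 and medians over probe sets of 7.82 to 7.88. Granule cell markers averaged 11.97 to 12.09 in the wild-type and 12.04 to 12.05 in the mutant arrays, and Purkinje cell markers 11.36 to 11.54 and 11.43 to 11.52, which puts the defining cell types of cerebellum at high levels in both groups.

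The segment includes the mouse counterparts of stretches that in people lie on 19q, 11p and 15q, among others. It carries an imprinted cluster, in which a gene is read from the maternal or the paternal copy only: Ube3a, a ubiquitin ligase read from the maternal copy in neurons, and Ndn, Magel2, Mkrn3 and Peg12, read from the paternal copy. Around these lie genes of ordinary biallelic expression such as Herc2 and Nipa1, genes of transmitter handling such as Slc17a6 and Slc17a7, and receptors such as Igf1r. An array value depends on how well the RNA pairs with the probes, so a base difference under a probe can lower 1 probe set while the rest of the gene keeps its level. Whether sequence variants lie under any probe was not tested, since probe sequences and the sequence of these mice were not used here. The description therefore asks where within each gene a low value sits: in 1 probe set or in most of them.

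For the genes whose difference spans most of their probe sets, the promoter shows what the locus looks like and whether it carries the octamers that Capicua is known to bind, TGAATGAA and TGAATGGA. RefSeq promoters (GRCm38.p6, 250 bases before to 50 after the start) were found for 152 of the 190 genes, 182 in all. At least 1 octamer was present in 5 of these 182 (2.75%) and in 2.46% of 32544 promoters of the same length. Each motif was searched on both strands, and matches of different motifs may overlap. Sergef (chr7:46639758-46640057, minus strand) and Luzp2 (chr7:54834995-54835294, plus strand) are shown as the genes with the lowest gene differences, out of 7 with low values along their length. Dbp (chr7:45704997-45705296, plus strand) and Ptpn5 (the second of its promoters, chr7:47132549-47132848, minus strand) are shown as the genes with the largest high values across their length, out of 5 such genes. Each runs 5′ to 3′ on the gene's strand, and capitals mark an octamer.
Sergef promoter: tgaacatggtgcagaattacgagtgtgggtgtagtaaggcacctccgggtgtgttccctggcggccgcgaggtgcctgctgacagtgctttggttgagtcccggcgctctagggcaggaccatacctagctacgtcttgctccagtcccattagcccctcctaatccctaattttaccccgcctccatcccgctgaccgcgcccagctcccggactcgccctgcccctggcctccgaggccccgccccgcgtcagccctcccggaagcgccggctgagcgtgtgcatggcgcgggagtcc
Luzp2 promoter: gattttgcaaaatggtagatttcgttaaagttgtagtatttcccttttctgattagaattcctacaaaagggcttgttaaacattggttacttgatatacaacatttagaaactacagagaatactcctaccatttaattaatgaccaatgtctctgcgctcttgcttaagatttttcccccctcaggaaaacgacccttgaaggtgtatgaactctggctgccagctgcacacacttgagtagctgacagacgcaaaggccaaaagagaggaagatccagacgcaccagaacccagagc
Dbp promoter: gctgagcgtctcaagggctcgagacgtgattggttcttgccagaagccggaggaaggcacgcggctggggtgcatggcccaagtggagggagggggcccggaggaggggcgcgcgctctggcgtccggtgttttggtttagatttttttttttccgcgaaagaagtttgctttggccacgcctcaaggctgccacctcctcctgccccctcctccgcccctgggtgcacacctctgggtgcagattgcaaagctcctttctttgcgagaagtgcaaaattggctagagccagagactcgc
Ptpn5 promoter: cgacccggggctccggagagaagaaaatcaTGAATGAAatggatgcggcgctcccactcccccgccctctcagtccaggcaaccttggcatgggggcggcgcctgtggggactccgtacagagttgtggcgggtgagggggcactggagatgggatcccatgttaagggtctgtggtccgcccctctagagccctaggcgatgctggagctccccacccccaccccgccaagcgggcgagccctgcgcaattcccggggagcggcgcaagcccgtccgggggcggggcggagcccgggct
Of these, the Ptpn5 promoter held TGAATGAA, at position -220 from the start site, and the Sergef, Luzp2 and Dbp windows and the other Ptpn5 promoter held neither octamer. TGAATGAA alone was in 3 of the 182 segment promoters, those of Fgf21, Ldhc and Ptpn5, and in 1.31% of all. CACGTG, the E-box read by clock factors and others, was in 19 of the 182 (10.4%) and in 7.17% of all. A match is a run of letters and not a measured site, and the lack of one says only that the letters are not in this window.

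Low probe sets were frequent in the segment. Of its 2140 probe sets, 36 were lower by 1 or more, that is by at least 2-fold, which is 1.68%, where the share over all probe sets with 1 symbol was 0.267%. In 30 of the 36 the groups did not overlap, every Cic-L-null array lying under every wild-type array, and 0.107% of all probe sets met both conditions. Probe sets higher by 1 or more numbered 8, or 0.374%, with a background of 0.273%, and in 3 of these the groups did not overlap, against 0.0868% of all probe sets. At a size of 2 the counts were further apart: 7 segment probe sets and 18 on the whole array were lower by 2 or more, whereas 0 in the segment and 6 on the array were higher by as much. These shares are those by which the segment was noticed, and nothing further is read from them. At the size limit, a Cyth2 probe set at 1.01 was the smallest difference counted and a Ptpn5 probe set at 0.994 the largest left out.

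**Figure D1:**
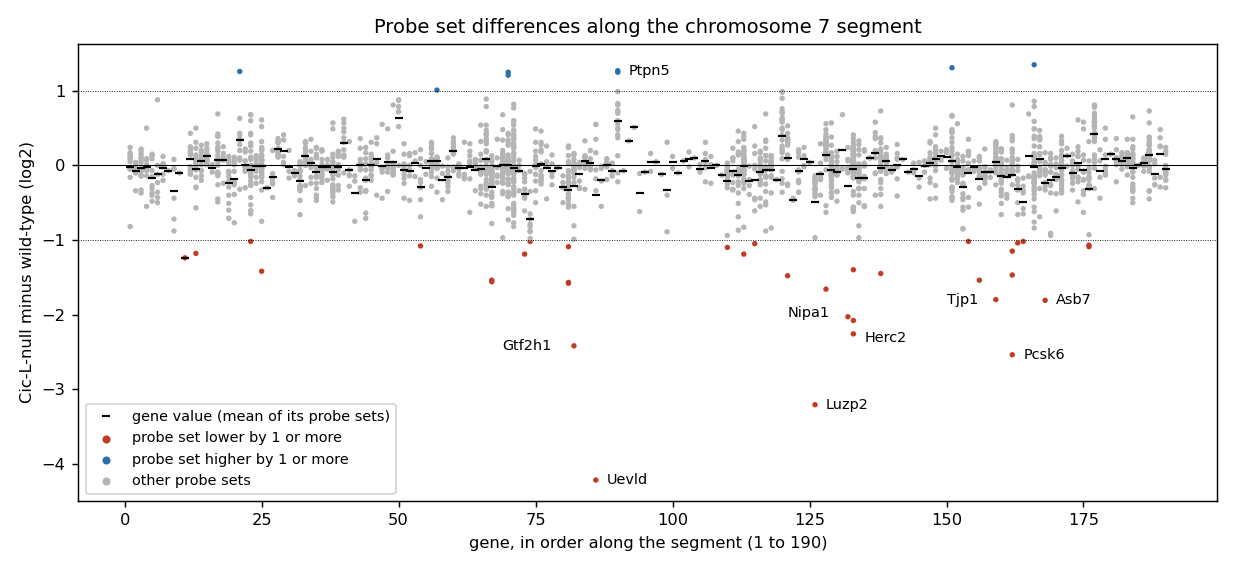
Each point is a probe set of the segment, placed by its gene's rank along the chromosome (x axis, 1 to 190) and by its log2 difference, Cic-L-null minus wild-type (y axis); black dashes are gene values and dotted lines mark a difference of 1. The 36 red points under the lower line stand mostly alone under genes whose dash lies near 0, with Uevld at -4.22 and Luzp2 at -3.21 the lowest.

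The 36 low probe sets belonged to 28 genes. Most genes had a single one, 23 in all, while Nomo1 and Synm had 2 each and Herc2, Hps5 and Pcsk6 had 3 each. For 35 of the 36 the gene had further probe sets, and in 20 of the 35 those others differed by under 0.2 on average. Their mean difference was at or above 0 in 9, its median over the 35 was -0.09, and it ranged from -0.68 (Sergef) to 0.23 (Slc17a6). In 17 of the 28 genes the median probe set difference was within 0.2 of 0. Low values of 2-fold or more thus sat mainly in single probe sets, with a minority in genes that were low throughout.

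Uevld, which encodes a protein with a ubiquitin-conjugating-like domain beside a lactate dehydrogenase-like domain, held the lowest probe set of the segment. Probe set 10563650 read 8.10, 7.96, 7.91 and 9.16 in wild-type replicates 1 to 4 and 4.60, 4.38, 3.75 and 3.51 in the Cic-L-null replicates. The groups lay far apart, with a mean difference of -4.22 (SE 0.34). The mutant mean of 4.06 lay under 5.88, the level that 90% of the probe sets of olfactory receptor genes stay below and used here as a limit of dimness, so the size of the difference is not exact and no fold is given. The 7 other Uevld probe sets differed by 0.15 on average, from -0.34 to 0.55, and in each of them the groups overlapped. The gene value of Uevld was 7.40 ± 0.078 in wild-type and 7.01 ± 0.11 in mutants (SD, n = 4 each), a difference of -0.40 that came from 1 probe set in 8, and 4 of the 8 were higher in the mutants. Of the 8, 7 had neighbouring identifiers and 1 (10399037) did not, so its place in the gene is less sure.

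Luzp2, which encodes a leucine zipper protein found mainly in brain, combined both forms. Its probe set 10553542 read 11.58, 11.61, 11.48 and 12.24 in wild-type and 8.83, 8.19, 8.38 and 8.69 in mutant replicates, a difference of -3.21 (SE 0.20). This was the only probe set of the segment called by limma over all 241576 probe sets (adjusted p = 0.0456), where probe sets called lower made up 0.000414% of the file and those called higher 0%. The other 16 probe sets of Luzp2 were lower as well, by 0.14 to 0.97, and by 0.32 on average, with no overlap in 7 of them. The gene value was 10.72, 10.60, 10.50 and 10.68 in wild-type and 10.21, 10.05, 10.16 and 10.11 in mutants. That is a difference of -0.49 (SE 0.067) with all of its 17 probe sets below 0, a shift along the whole gene with 1 probe set far beyond it. Without that probe set the difference was -0.32 and the limma call ended (adjusted p = 0.114).

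Sergef, named for its secretion-regulating guanine nucleotide exchange factor, was the segment's lowest gene with 3 or more probe sets. Its gene value read 8.52, 8.69, 8.62 and 8.99 in wild-type and 7.91, 7.99, 8.15 and 7.91 in mutant replicates, with no overlap. The means were 8.71 ± 0.20 and 7.99 ± 0.11 (SD, n = 4 each), a difference of -0.72 (SE 0.10) or 1.64-fold. All 10 probe sets were lower, from -1.02 to -0.08 with a median of -0.80, the groups did not overlap in 7, and without the lowest the gene still stood at -0.68. The low values of Sergef thus ran along the whole gene, though not in equal size.

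**Figure D2:**
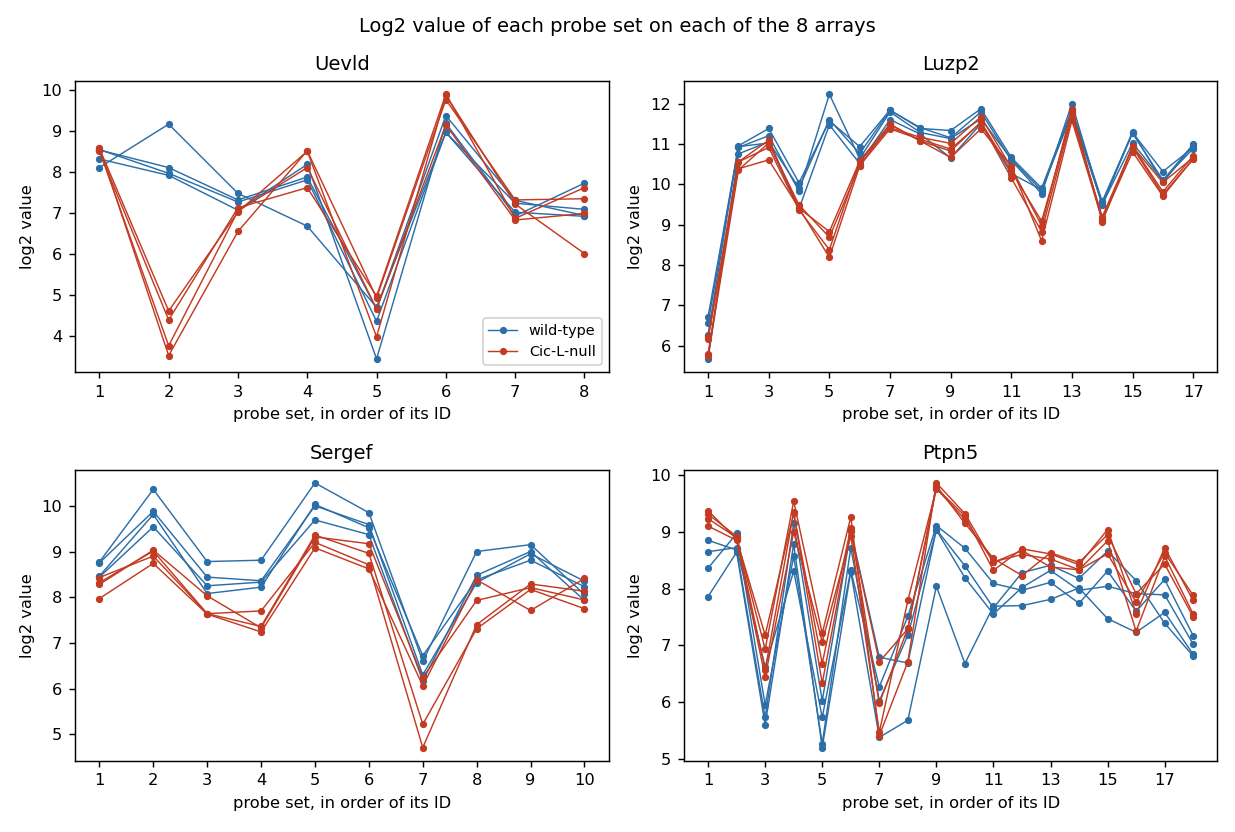
Log2 value (y axis) of every probe set of Uevld, Luzp2, Sergef and Ptpn5, in order of identifier (x axis), with 1 line per array, 4 wild-type in blue and 4 Cic-L-null in red. The groups do not overlap at 1 of 8 probe sets of Uevld, at 8 of 17 of Luzp2, most widely at the fifth, at 7 of 10 of Sergef and, with the mutants higher, at 8 of 18 of Ptpn5.

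Among the 158 genes with 3 or more probe sets, 11 were lower by 0.3 or more (background 1.07%) and 5 higher by as much (background 1.33%). Backgrounds here are shares of all genes with 3 or more probe sets, so each count below stands against the 158. A gene value averages all probe sets and dilutes 1 low one, so this limit favours genes low along their length. The counts therefore do not show which form was the commoner. A difference was called concentrated where it shrank to less than 50% of its size once the gene's most extreme probe set was left out, and spread where it did not and at least 80% of the probe sets shared its sign. Of the 11 low genes, 3 were concentrated, namely Uevld, Fut1 and Mrgpra4 (background 0.077%), 7 were spread, namely Rpl13a, Kcnc1, Sergef, Luzp2, Snrpa1, Selenos and Synm (background 0.953%), and Hps5 was mixed. All 5 high genes, Slc6a16, Dbp, Ptpn5, Ano5 and Igf1r, were spread (background 1.18%). Fut1, a fucosyltransferase, and Mrgpra4, a receptor of sensory neurons, were dim and their groups overlapped, at 5.69 ± 0.17 against 5.32 ± 0.36 and at 4.95 ± 0.34 against 4.62 ± 0.24 (SD, n = 4 each). Both means lay under 5.78, the level that 90% of 985 olfactory receptor genes stay below on these arrays and used here as a limit of dimness, and of the 190 genes 152 averaged above it. Uevld was thereby the only bright gene of the segment with a concentrated difference of this size.

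**Figure D3:**
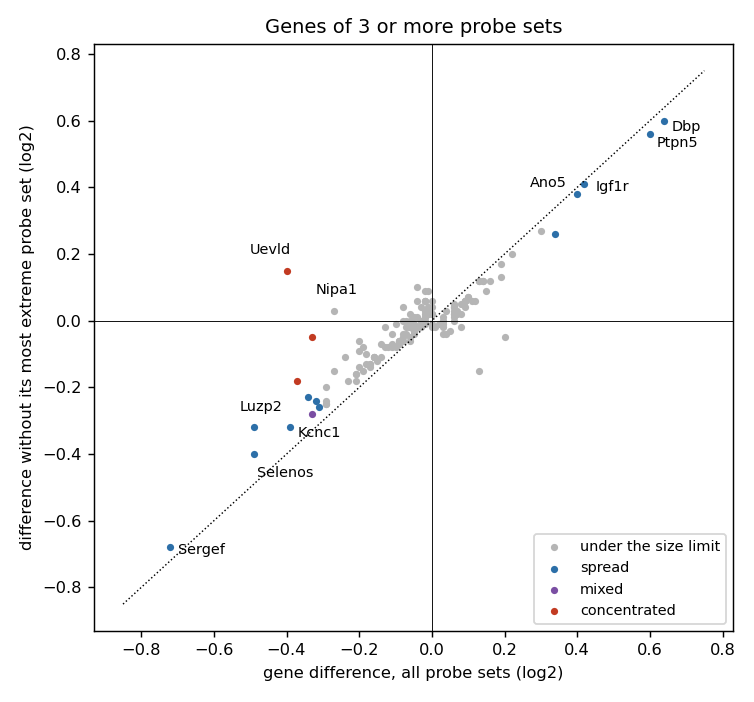
Gene difference from all probe sets (x axis) against the mean difference once the gene's most extreme probe set in the gene's direction is left out (y axis), both in log2 units, for the segment's 158 genes of 3 or more probe sets. Sergef stays by the dotted line of equal values at -0.68, Luzp2 moves up to -0.32, and Uevld crosses 0 to 0.15.

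The other genes that were low along their length differed by less than Sergef. Without the most extreme probe set of each, Selenos stood at -0.40 and Luzp2 at -0.32. Kcnc1, the fast delayed-rectifier potassium channel Kv3.1 of fast-firing neurons, read 10.67, 10.60, 10.52 and 10.85 in wild-type and 10.37, 10.16, 10.21 and 10.33 in mutant replicates. All 12 Kcnc1 probe sets were lower and 7 had no overlap, for a gene difference of -0.39 (SE 0.082), and of -0.32 without the probe set at -1.19. Selenos, a selenoprotein of the endoplasmic reticulum listed on the array as H47, read 8.44, 8.14, 7.63 and 8.35 in wild-type and 7.65, 7.75, 7.73 and 7.48 in mutants. Its 7 probe sets were all lower, by -0.49 (SE 0.15) as a gene, but wild-type replicate 3 lay among the mutants, so the groups overlapped. Snrpa1, a protein of the U2 spliceosomal particle, differed by -0.32 (SE 0.080) with 9 of 10 probe sets lower. Synm, the intermediate filament protein synemin, chosen here after its values were seen, differed by -0.31 (SE 0.083) with 15 of 17 lower. Hps5, a subunit of a complex for lysosome-related organelles, differed by -0.33 (SE 0.098), and 3 of its 25 probe sets were lower by 1 or more while 6 were higher. Nomo1, picked after its values were seen, fell just short of the size limit at -0.29 (SE 0.064), with no overlap. Of its 33 probe sets 30 were lower, 11 of them without overlap, and -0.25 remained without the most extreme.

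Rpl13a, a protein of the large ribosomal subunit, met the definition of a spread difference at -0.34 (SE 0.067), yet its probe sets were split. The 3 with the lowest identifiers differed by -0.44, -0.72 and -0.88 with no overlap, and the other 3 by -0.05, 0.08 and -0.04. Snord33, a small nucleolar RNA encoded in an intron of Rpl13a and singled out after its values were seen, has 1 probe set, which read 8.27, 7.74, 8.17 and 8.98 in wild-type and 6.92, 7.13, 7.06 and 7.08 in mutants, a difference of -1.24 (SE 0.20 in the gene fit). Fancf, a protein of the Fanconi anaemia DNA repair pathway, has 2 probe sets that differed by -0.47 and -0.44, for a gene value of 8.28 ± 0.12 in wild-type and 7.82 ± 0.18 in mutants (SD, n = 4 each). Its groups did not overlap, and with 2 probe sets the form of the difference cannot be classed.

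Several genes held very low probe sets whose size of difference the gene's other probe sets mostly did not share. Gtf2h1, a subunit of the general transcription factor TFIIH, had a probe set at 7.59, 7.45, 7.66 and 8.22 in wild-type and 5.26, 5.12, 5.48 and 5.37 in mutants (-2.42, SE 0.17), while its other 17 averaged -0.15. The Gtf2h1 gene value differed by -0.27 (SE 0.069) with no overlap, and 12 of 18 probe sets were lower. Herc2, a giant ubiquitin ligase with 94 probe sets, had 3 lower by 1 or more, at -2.26, -2.08 and -1.40, and a gene difference of -0.05 (SE 0.060). The lowest of the Herc2 probe sets read 9.72, 9.73, 9.90 and 10.23 in wild-type and 8.24, 7.24, 7.47 and 7.62 in mutants, and 56 of the 94 were higher in the mutants. Without overlap, 9 of the 94 were lower and 1 higher. Pcsk6, a proprotein convertase of the secretory pathway, had 3 as well, at -2.54, -1.47 and -1.15, in a gene at -0.13 (SE 0.078) with 13 of 23 probe sets higher. At the lowest, the Pcsk6 wild-type values were 8.18, 7.66, 5.58 and 8.31 and the mutant values 4.70, 5.43, 3.87 and 5.57, so that wild-type replicate 3 lay just above the mutants. In each of these 3 genes the median probe set lay between -0.06 and 0.03.

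The same held for genes with 1 very low probe set. Nipa1, a magnesium transporter, had a probe set at -2.03 among 7, with wild-type values of 6.03, 5.85, 4.25 and 5.71 and mutant values of 3.68, 3.26, 3.43 and 3.34, and without it the Nipa1 difference went from -0.27 to 0.03. Asb7, a substrate receptor of a ubiquitin ligase, had a probe set at -1.81 and a gene difference of -0.24 (SE 0.059), which was -0.11 without it. Tjp1, the tight junction scaffold ZO-1, had a probe set at -1.80 in a gene at 0.04 (SE 0.071), with 23 of 29 probe sets higher. Tubgcp5, a component of the gamma-tubulin ring complex, had a probe set at -1.66 in a gene at 0.14 (SE 0.076), with 24 of 28 higher. Slc17a6, the vesicular glutamate transporter VGLUT2 and a member picked after its values were seen, had a probe set at -1.48, with no overlap, while 11 of its 14 probe sets were higher and the gene stood at 0.10 (SE 0.071). For Tjp1, Tubgcp5 and Slc17a6 the low probe set ran against the sign of the gene.

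The spread of the low probe sets within groups was larger than is usual for the array. The 36 were picked for a large difference on these same arrays, which by itself favours wide spread and high wild-type values. Low probe sets of this size elsewhere were not compared, so the values below only describe the 36. Over the 36, the median SD was 0.369 in wild-type and 0.371 in mutants, where the medians over all probe sets were 0.215 and 0.195. Wild-type replicate 4 was the highest wild-type array in 28 of the 36 (77.8%), a rank it held in 21.4% of all probe sets, and it was also the highest wild-type array for Cic. Replicate 3 was the lowest in 17 (47.2%, against 29% of all) and replicate 2 in 14 (38.9%, against 22.4%). The median of the 36 wild-type means was 8.01 and that of the mutant means 6.58. In 13 of the 36 the mutant mean lay at or under the dim limit for probe sets of 5.88, as did the wild-type mean in 4, and near that level a log2 difference understates the fold. Without wild-type replicate 4, 28 segment probe sets were lower by 1 or more.

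High probe sets were fewer. Of the 8, in 6 genes, 2 belonged to Ptpn5, the striatum-enriched tyrosine phosphatase STEP, at 1.27 and 1.25. Ptpn5 was high along its length: its gene value read 7.84, 7.72, 7.88 and 7.25 in wild-type and 8.28, 8.28, 8.33 and 8.21 in mutants, with no overlap, and wild-type replicate 4 was the low array. The difference was 0.60 (SE 0.12), with 16 of 18 probe sets higher, 8 of them without overlap, and 0.56 remained without the most extreme. In the others, the high probe sets stood alone or scattered. A Trpm1 probe set at 1.31 rested on Cic-L-null replicate 4, at 12.51 where the other 7 arrays read 5.82 to 6.78, and the gene differed by 0.06 (SE 0.063). Lrrk1, a kinase related to LRRK2, had one at 1.35 and Ush1c, the scaffold harmonin, had 1.25 and 1.21, all with overlapping groups, in genes that stood at -0.02 (SE 0.074) and 0.00 (SE 0.074). The Slc6a16 probe set at 1.26 belonged to a spread gene at 0.34 (SE 0.085), and that of Cyth2, at 1.01, to a gene at 0.06 (SE 0.052).

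Dbp, Igf1r and Ano5 were high along their length as well. Dbp, a clock output transcription factor, read 8.89, 8.94, 8.90 and 9.07 in wild-type and 9.52, 9.52, 9.86 and 9.46 in mutants, a difference of 0.64 (SE 0.090) with 6 of 7 probe sets higher, all 6 without overlap. Igf1r, the receptor of insulin-like growth factor 1, read 8.90, 8.83, 8.89 and 8.79 against 9.36, 9.11, 9.17 and 9.48, a difference of 0.42 (SE 0.084) with 21 of 23 higher and 14 without overlap. Ano5, a membrane protein of the anoctamin family, differed by 0.40 (SE 0.093) with 19 of 23 higher. Bcat2, the mitochondrial branched-chain aminotransferase, stood at the size limit with 0.30 (SE 0.076) and 10 of 11 higher, and Snrnp70, a protein of the U1 spliceosomal particle, had 14 of 14 higher at 0.22 (SE 0.065). Grin2d, an NMDA receptor subunit, and Kcna7, a potassium channel, were at 0.19 each (SE 0.078 and 0.097), with no overlap for Grin2d and overlap for Kcna7. A230056P14Rik, at 0.20 (SE 0.13), was dim and owed its value to 1 of 3 probe sets.

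Over the array, limma on gene values with Benjamini-Hochberg adjustment called 3 segment genes, Sergef and Luzp2 lower and Dbp higher (adjusted p = 0.0258 each), where genes called lower were 0.0491% and called higher 0.0884% of all genes. Nothing is read from that count, since the comparison chose the segment, and it was not stable. When a gene value was the median of its probe sets, all 3 calls were lost (adjusted p by limma 0.0635 for Dbp, 0.131 for Luzp2 and 0.246 for Sergef), and Sergef stood at -0.48. All 3 kept the call without Cic-L-null replicate 3, and Luzp2 and Sergef did without wild-type replicate 1, when Dbp stood at an adjusted p of 0.061 by limma. Without any 1 of the other 6 arrays each of the 3 had an adjusted p of 0.055 to 0.113 by limma. Across all 190 genes, 124 were lower and 66 higher (65.3% lower, against 53% of all genes), with a median of -0.036 against -0.007. The groups had no overlap in 26 genes that were lower (13.7%, background 2.91%) and 10 that were higher (5.26%, background 3.02%). Among probe sets the same counts were 135 lower (6.31%, background 1.94%) and 87 higher (4.07%, background 2.44%). Leaving out of each gene the probe set that differed most took the 26 low genes without overlap to 8, and the 10 high ones to 8. This setting also drops genes with under 3 probe sets. Among the low ones these were Snord33, Mtag2, Mrgpra1, Mrgprb11-ps and Fancf, and none of the high ones was dropped. The 2 changes are therefore not alike.

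The imprinted cluster lay close to level between the genotypes. Of 12 listed genes 6 were measured by probe sets of their own, all above the dim limit, and in all 6 the groups overlapped. Ube3a read 9.97, 9.84, 9.67 and 9.81 in wild-type and 9.90, 9.89, 9.86 and 9.89 in mutants, a difference of 0.06 (SE 0.067) with its 15 probe sets between -0.11 and 0.24. Ndn, necdin, a neuronal growth suppressor, read 11.78, 11.88, 11.74 and 11.85 against 11.73, 11.76, 11.73 and 11.68 in its 1 probe set, a difference of -0.09 (SE 0.056). Magel2, of the same protein family, was at -0.05 (SE 0.10), Mkrn3, a ring finger protein, at -0.14 (SE 0.085) and Peg12 at -0.01 (SE 0.087). Thus 5 were lower and 1 higher, with a median of -0.043 beside -0.007 over all genes, and limma called 0 of the 6 on gene values, with 0 at an unadjusted p under 0.05 and the smallest at 0.125. Without each gene's most differing probe set, which drops Ndn, the median was on the other side of 0 at 0.0328. No probe set of Ube3a, Ndn, Magel2, Mkrn3 or Peg12 differed by more than 0.29 in size.

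Atp10a, a phospholipid flippase at the edge of the cluster, was the exception at probe set level. Its gene value was 7.20 ± 0.067 in wild-type and 7.17 ± 0.063 in mutants (SD, n = 4 each), a difference of -0.03 (SE 0.060). Within it, 1 of 22 probe sets read 7.55, 8.30, 7.89 and 8.23 in wild-type and 7.06, 6.27, 6.64 and 6.20 in mutants, a difference of -1.45 with no overlap, while the others averaged 0.04. The 24 probe sets listed as Snord116, a repeated small nucleolar RNA of the paternal copy that the gene table carries under Gm26504, averaged 12.13 ± 0.082 and 12.07 ± 0.10 (SD, n = 4 each), a difference of -0.06 (SE 0.070). They are near-identical copies, held only 7 distinct rows of values and correlated at 0.912 or more across arrays, so they count as nearly a single measurement. Probe sets that name both Snrpn and Snurf were not analysed here.

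**Figure D4:**
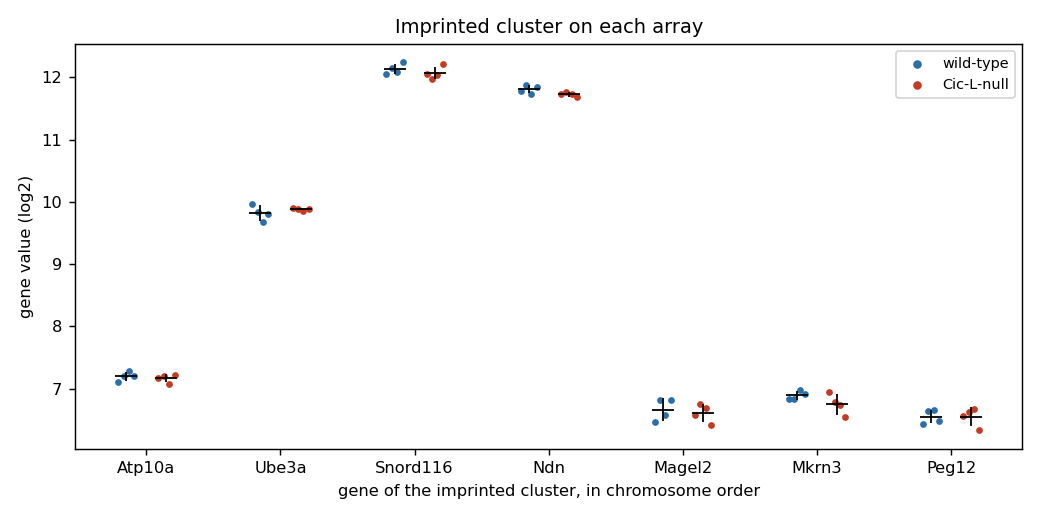
Gene value on each array (y axis, log2) for the imprinted genes and Snord116 in chromosome order (x axis), wild-type in blue and Cic-L-null in red, with bars for the mean and SD of 4 arrays. The groups overlap in every gene, from Ube3a at 9.82 and 9.88 to Peg12 at 6.55 and 6.55.

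Genes beside the imprinted cluster stood between these forms. Of the 2 GABA-A receptor genes measured, Gabra5 was at 0.16 (SE 0.077) and Gabrg3 at -0.17 (SE 0.099), both with overlap. Of the 6 biallelic neighbours, Nipa1, Nipa2, Cyfip1, Herc2, Oca2 and Tubgcp5, 5 were lower and 1 higher, with a median of -0.076, and the lone one without overlap was Nipa1, through the probe set described above. Of 10 genes listed for a block that resembles 15q13 of people, though not every member need lie there, 5 were lower and 5 higher, with a median of 0.001. In that block Fan1, a nuclease of DNA crosslink repair, was at -0.29 (SE 0.080) with no overlap and 16 of 18 probe sets lower. Chrna7, the alpha-7 nicotinic receptor, was at 0.03 (SE 0.068). Apba2, an adaptor of synaptic vesicle release, picked after its values were seen, was at -0.18 (SE 0.064) with no overlap. Without its lowest probe set Apba2 stood at -0.1. That probe set, at -1.54, read 10.04, 9.83, 9.68 and 10.27 in wild-type and 8.69, 8.28, 8.17 and 8.53 in mutants. Over all genes, 2.91% were lower without overlap. Limma called 0 genes of these 3 lists on gene values, and 0, 2 and 2 of them, in the order given, had an unadjusted p under 0.05, as did 9.26% of all genes and 22.6% of the segment's.

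The remaining groups of the segment held genes on both sides of 0. Of 14 genes for neuronal transporters, channels and receptors, 8 were lower and 6 higher with a median of -0.009. The groups had no overlap in 1 lower gene, Kcnc1, and in 4 higher ones, Ptpn5, Slc6a16, Grin2d and Slc17a7, the last the granule cell glutamate transporter VGLUT1 at 0.13 (SE 0.059); over all genes these shares were 2.91% and 3.02%. Of 12 genes of DNA repair, transcription and RNA, 8 were lower and 4 higher with a median of -0.095, and Gtf2h1, Fancf and Htatip2 were lower with no overlap. Htatip2, at -0.19 (SE 0.07), stood at -0.08 without its probe set at -1.05. Of 6 growth factor and protease genes 3 were on each side, with a median of 0.033 and Igf1r the most different. The 16 Mrgpr receptor genes, which include near-identical copies, averaged 4.49 to 4.74 across the wild-type and 4.57 to 4.74 across the mutant arrays, with 1 above the dim limit, and Mrgprx3-ps at 0.51 (SE 0.18) has a single dim probe set. Of the 5 serum amyloid genes 4 were lower and 1 higher, with a median of -0.036, with Saa2 the most different at -0.29 (SE 0.12) and dim. The 4 lactate dehydrogenase and ESCRT genes had a median of -0.04, with Ldha at -0.11 (SE 0.066) and Tsg101 at 0.03 (SE 0.094), and Uevld, described above, the most different. In these 6 lists limma called 0 genes, with 4, 3, 1, 3, 1 and 1 of them, in the order given, at an unadjusted p under 0.05 (9.26% of all genes), and of the clock output and ribosome lists it called Dbp and not Rpl13a.

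Along the chromosome the low probe sets ran through most of the segment. In windows of 5 Mb they made up 1.45% from Scaf1 to Nell1 (17 of 1174), 2.74% in the next, which ends with Luzp2 (2 of 73), 2.01% from Siglech to Gm26504 (6 of 299), 1.21% in the window ending with Nsmce3 (2 of 165) and 2.83% from Tjp1 to Arrdc4 (9 of 318). In the last window, from Nr2f2 to Slco3a1, 0 of 111 were lower by 1 or more, as were 0 of 363 in the one after the segment, from Sv2b to Arpin. The first gene of the segment with such a probe set and no overlap was Snord33 and the last Synm, after which came 14 genes with 158 probe sets. At the limits themselves gene values were level inside and not before: Scaf1, the first inside, differed by -0.02 (SE 0.073) and Slco3a1, the last, by -0.05 (SE 0.063), while Irf3, just before, differed by -0.30 (SE 0.070) and Sv2b, just after, by -0.03 (SE 0.057).

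**Figure D5:**
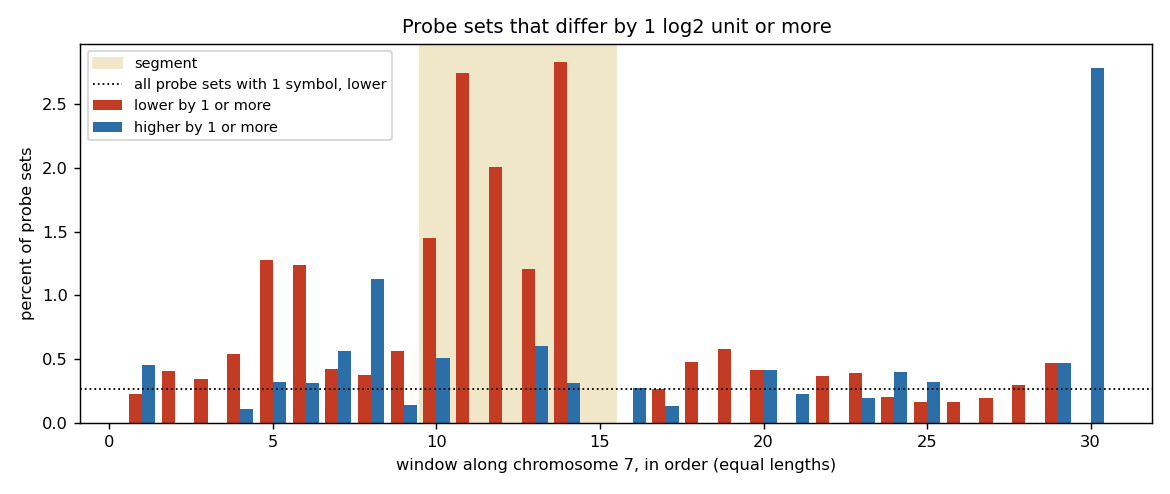
Share of probe sets (y axis, percent) lower (red) or higher (blue) by 1 log2 unit or more in consecutive windows of equal length along chromosome 7 (x axis), with the segment shaded and the dotted line at 0.267%, the share lower over all probe sets with 1 symbol. Red bars stand at 1.21% to 2.83% in the first 5 windows of the segment and at 0 in its last. Before the segment, the fifth window of the chromosome stands at 1.28% and the sixth at 1.24% (16 of 1290). The sixth counts the 21 probe sets of Cic itself. Over all windows before the segment, 36 probe sets were lower by 1 or more with Cic and 23 without it. The tall blue bar at the far end is 1 probe set of 36.

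Outside the segment, low probe sets were more frequent on chromosome 7 before it than after it. Of 5168 probe sets before the segment, without those of Cic, 23 were lower by 1 or more (0.445%), 16 of them with no overlap, and 16 were higher. They were not evenly placed: from Vmn1r127 to Rabac1, the window before that of Cic, 4 of 313 were lower (1.28%), 3 with no overlap. Of 8393 after it, 22 were lower (0.262%) and 18 higher (0.214%), and 6 of each had no overlap. On all other chromosomes together 0.24% were lower and 0.273% higher, and single chromosomes ranged from 0.094% (chromosome 8) to 0.363% (chromosome 4) lower, where chromosome 7 as a whole had 0.598%. Since Cic lies on this chromosome, loss of Capicua and any chromosome 7 sequence carried along with the mutant allele cannot be told apart in this design.

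Markers of some cell types differed between the genotypes. Beside the counts below, 2.91% of all genes were lower and 3.02% higher without overlap. Limma called 0.0491% of all genes lower and 0.0884% higher, and 9.26% had an unadjusted p under 0.05 by limma. Bergmann glia and astrocyte markers averaged 9.90 to 10.08 in wild-type and 9.65 to 9.72 in mutants, with 6 of 6 lower, 2 without overlap and 1 called by limma. Fabp7, a fatty acid binding protein of these glia, carried most of this at -1.17 (SE 0.14), and without it, a choice made after seeing the data, the markers averaged 9.86 to 9.99 and 9.77 to 9.82. Mature oligodendrocyte markers averaged 10.57 to 10.64 and 10.40 to 10.51, with 3 of 5 lower without overlap, Mog at 0.00 (SE 0.070) and 0 called by limma (2 at an unadjusted p under 0.05). Choroid plexus markers spanned 8.50 to 8.91 and 7.59 to 8.89, with 4 of 4 lower, overlap in each and 0 called by limma (1 at an unadjusted p under 0.05). Of the 5 brainstem and nuclear neuron markers, which include Slc17a6 and Slc6a5, 3 were higher and 2 lower, with Th at 0.58 (SE 0.11) and Tph2 at 0.34 (SE 0.096) higher without overlap and 0 called by limma (3 at an unadjusted p under 0.05). Endothelial markers were lower in 3 of 4, 1 without overlap, with 0 called by limma (1 at an unadjusted p under 0.05). Microglia markers were lower in 2 of 5, meningeal in 2 of 3 and forebrain in 2 of 2, all with overlap. Limma called 0 of these, with 0, 1 and 1 in that order at an unadjusted p under 0.05. The part of these cell types in the differences of segment genes such as Luzp2 and Sergef was not tested. In bulk tissue, fewer cells of a type and less RNA per cell cannot be told apart.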

How the data were processed

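The measurements are log2 expression values of 8 arrays of mouse cerebellum, 4 wild-type and 4 Cic-L-null, grouped by their titles. The deposited log2 values were made by the authors with the RMA method in Affymetrix Power Tools (per the notes on processing that the submitters gave), with versions and genome build not given in the sources used here. RMA includes quantile normalisation, so a shift of all genes would not show. The label of wild-type replicate 1 alone names a Trizol and RNeasy extraction.

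Symbols came from the platform annotation (212097 probe sets with 1 symbol, 4475 with several, 25004 with none), updated through RefSeq GRCm38.p6, whose gene starts placed genes on chromosome 7. In all, 17621 symbols were current, 2742 replaced through a synonym (14 in the segment) and 53 kept. Gene values are means of log2 values over probe sets; 22 segment genes have 1 probe set. Groups were compared with limma 3.58.1 in R 4.3.3 (lmFit, eBayes without trend), two-sided, on 20352 genes and on all 241576 probe sets, with Benjamini-Hochberg adjustment and a threshold of 0.05. The dim limits are the 90th percentile of 985 olfactory receptor genes, 5.88 for probe sets and 5.78 for genes. On simulated data with 200 of 20352 genes changed (3 simulations), 69.5% of changes of 0.5 and 97% of changes of 1 were recovered.

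The members, the lists and the rule for named genes were chosen with earlier results of these data known. The rule names Sergef, Luzp2, Dbp, Igf1r, Uevld, Pcsk6 and the imprinted genes, the 10 largest falls and rises among genes of 3 or more probe sets, genes with 1 of the 10 lowest or highest probe sets, and each list's most different member; genes outside it illustrate counts and lists and were picked after their values were seen. Arrays give no read depth, and their number limits the precision. Alternatives covered the combining of probe sets, dim probe sets, normalisation, the variance model, a replicate block, a covariate, thresholds, the limits of the segment and each array left out.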

Additional observations from a re-analysis of the deposited data

Results flagged for a closer look

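In groups of 4 arrays, a highest or lowest array counts as far from the rest when its gap to the nearest one, over the group's range, exceeds Dixon's critical value. This held in 10 of 172 groups of named genes and of probe sets differing by 1 or more, and chance gives about 5%. Wild-type replicate 4 stood high in 3 probe sets: Uevld 10563650 at 9.16 (others 7.91 to 8.10), Luzp2 10553542 at 12.24 (others 11.48 to 11.61) and Hps5 10563633 at 7.92 (others 7.49 to 7.55). Wild-type replicate 3 stood low in 2 gene values, Asb7 at 7.07 (others 7.23 to 7.25) and Grin2d at 7.76 (others 7.88 to 7.90). Wild-type replicate 1 stood high in Lrrk1 probe set 10564413 at 4.62 (others 3.35 to 3.56). Cic-L-null replicate 2 stood low in the gene value of Herc2 at 9.44 (others 9.57 to 9.60) and high in Ppfia3 probe set 10563246 at 6.17 (others 5.18 to 5.33). Cic-L-null replicate 3 stood high in Dbp at 9.86 (others 9.46 to 9.52). The widest gap was that of Trpm1 probe set 10553876, where Cic-L-null replicate 4 read 12.51 and the other 3 mutant arrays 5.82 to 6.65.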

How the results depend on the processing

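Among the 752 recomputed values of the 42 named genes 33 moved by the spread between replicates or more, all under settings that change which probe sets enter a gene or how they are combined, and 21 changed sign. The 3 segment genes called became 0 with the median of probe sets (Dbp 0.72, adjusted p by limma 0.0635; Luzp2 -0.43, 0.131; Sergef -0.48, 0.246), 10 with trend and robust, 7 at an adjusted p under 0.1 and 1 from Uevld to Pcsk6. Sergef also lost the call with the covariate of Y-linked genes (-0.71, adjusted p by limma 0.0601) and without probe sets differing by 1 or more, chosen after seeing the data (-0.68, 0.0502), as Luzp2 did there (-0.32, 0.134). The 1 probe set called became 3 above the dim limit, 15 with trend and robust, 0 with that covariate and 3 at an adjusted p under 0.1. Segment probe sets higher by 1 or more numbered 4 above the dim limit, and at a size of 0.7 there were 73 lower and 37 higher. The 3 concentrated differences became 1 above the dim limit, 6 at a gene size of 0.2 and 0 at 0.5, and the 12 spread ones 19 and 3 at those sizes. Without the most differing probe set of each gene, which also drops genes with under 3 probe sets, 8 low genes had no overlap and the imprinted median was 0.0328. The genes from Uevld to Pcsk6 gave a median of -0.0559, 18 probe sets lower and 3 higher by 1 or more, 61 lower and 34 higher without overlap, 11 low and 2 high genes without overlap and 3 spread differences; fewer genes were counted there by construction. Leaving out 1 array at a time gave 0 to 3 called genes, 0 to 2 called probe sets, medians of -0.0434 to -0.0231 (imprinted -0.0781 to -0.0163), 1 to 3 concentrated and 8 to 15 spread differences, 28 to 48 probe sets lower and 7 to 14 higher by 1 or more. Counts without overlap were then 150 to 194 probe sets lower and 98 to 152 higher, and 27 to 35 genes lower and 10 to 14 higher, since 3 arrays separate from 4 more easily. Probe sets called numbered 0 without any 1 array except wild-type replicate 4, without which there were 2. Other causes were not tested.

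With the replicate number of the titles as a replicate block, 0 genes and 0 probe sets of the segment were called (adjusted p by limma 0.0777 for Luzp2, 0.0819 for Sergef and 0.0824 for Dbp). Deviations of same-numbered arrays correlated at 0.22, 0, 0.21 and 0.03, and only numbers 1 and 3 matched best with their own number, so the numbers were not taken to pair the mice.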
